A study of Mus musculus with 6 samples.

Results

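The genes described here are those of the endoplasmic reticulum (ER) that fold, move and dispose of newly made secretory proteins, together with the sensors that raise their transcription. The list held 33 gene symbols and was applied to the authors' table of normalized values, which has 13564 genes. It found 32 members there: 3 sensors and regulators (Xbp1, Ern1, Atf6), 6 chaperones of the Hsp70 and Hsp90 type with their J-domain partners (Hspa5, Hsp90b1, Hyou1, Dnajb9, Dnajb11, Dnajc3), 2 lectin chaperones (Calr, Canx), 4 disulfide isomerases (P4hb, Pdia3, Pdia4, Pdia6), 3 small luminal factors (Sdf2l1, Creld2, Manf), 7 genes of the translocon (Sec61a1, Sec61b, Sec61g, Ssr1, Ssr2, Ssr3, Ssr4) and 7 genes of ER-associated degradation (Herpud1, Edem1, Sel1l, Syvn1, Derl1, Derl2, Selenos). The remaining symbol, Derl3, is not in that table and is given apart. All 32 members passed the filter on low counts and were among the 13691 genes tested.

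Proteins destined for the cell surface or for secretion enter the ER through the Sec61 channel and are folded there by chaperones and by isomerases that form and reshuffle disulfide bonds. When unfolded proteins accumulate, the sensors IRE1 (encoded by Ern1), ATF6 and PERK (encoded by Eif2ak3) start the unfolded protein response: IRE1 splices the Xbp1 mRNA so that it encodes an active transcription factor, ATF6 is cleaved to release another, and PERK slows translation while favouring that of ATF4. XBP1 and ATF6 raise the transcription of chaperones, isomerases and degradation factors. An activated T cell enlarges its ER and begins to make cytokines and surface receptors in quantity.

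The 3 Foxo1TKO and 3 Foxo1Ctrl libraries came from naive CD4 T cells of lymph nodes of C57BL/6J mice, activated in vitro for 4 days. Foxo1TKO mice carry a CD4-cre transgene and floxed Foxo1 alleles (Foxo1 fl/fl), so that all of their T cells lose Foxo1 from the thymus onward. Foxo1Ctrl mice, the Foxo1-proficient controls, are described in the paper as Foxo1 fl/fl mice without the Cre recombinase. According to the methods, both lines also carry the Foxp3-GFP reporter; the age of the mice used for these cultures is not given in the sources used here. Each culture held soluble anti-CD3 antibody at 0.1 µg per ml (clone 145-2C11), with 250000 splenocytes of C57BL/6 CD3eKO mice, which lack T cells and served as antigen presenting cells. The labels put 50000 T cells in a culture, and the methods give a larger number. The sources do not state if splenocytes were removed from the cultures prior to lysis, or whether the 3 libraries of a genotype came from separate mice, so the p-values measure the spread between these libraries, which may be technical.

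Foxo1 itself was measured at 85.4, 46.5 and 115 normalized counts in Foxo1TKO libraries 1, 2 and 3, against 1529, 2285 and 1598 in Foxo1Ctrl (log2 fold change -4.45 ± 0.36 SE, adjusted p = 0.000195, edgeR's quasi-likelihood test, Benjamini-Hochberg adjusted). Every library thus matched its genotype label. Library totals ran from 14783890 to 19675447 expected counts, and the first principal component (66.4% of the variance) separated the genotypes. The second component (17.1%) ran within both genotypes: Foxo1TKO 1, Foxo1Ctrl 1 and Foxo1Ctrl 3 lay on one side and Foxo1TKO 2, Foxo1TKO 3 and Foxo1Ctrl 2 on the other. T cell markers were abundant in all libraries. Their summed level over 7 genes was 5404 to 6044 TPM (transcript abundance corrected for length, as the authors' counter gives it) in Foxo1TKO and 6602 to 6750 TPM in Foxo1Ctrl. Of these genes, Cd28 was lower in Foxo1TKO (log2 fold change -1.43, adjusted p = 0.0012 in the same test), and the others did not pass. In bulk RNA such as this, fewer cells of a type and less RNA per cell cannot be told apart.

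Genes that answer to the unfolded protein response carry short recognition letters near their start. The ER stress response element (ERSE, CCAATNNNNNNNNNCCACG) is bound by ATF6 together with the CCAAT factor NF-Y, ERSE-II (ATTGG and CCACG with 1 base between them) is a related arrangement that ends in the same CCACG, and the letters TGACGTG are the core of the unfolded protein response element. They were searched on both strands in RefSeq promoter windows of GRCm38.p6, from 250 bases before to 50 bases after the annotated start. A window was at hand for 26 of the 32 members, and it held an ERSE in 8 of them: Calr, Canx, Creld2, Dnajc3, Hsp90b1 (2 copies, 1 on each strand), Hspa5, Pdia6 and Syvn1. Among all tested genes with a window, 18 of 9511 (0.189%) held an ERSE, and 8 of those 18 were members. ERSE-II stood in the windows of Dnajb11 and Herpud1 (0.0946% of tested genes), and TGACGTG in that of Hspa5 alone among members (3.37% of tested genes). The FOXO core letters GTAAACA were in 0 of the 26 members' windows and in 3.22% of tested genes. A match of letters is a description and not a bound site.

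The 170 bases before the RefSeq start are shown for 8 members, on the strand of the gene, with the letters of the searched elements in capitals. That start can lie inside or outside the gene's outermost bounds in GENCODE, which are the gene positions given below, and for Hspa5, Pdia6, Pdia4, Hsp90b1 and Calr it did not match the start of a GENCODE transcript. Of the 4 members called higher in Foxo1TKO, Pdia6 carries an ERSE, Pdia4 and Sdf2l1 carry none in this exact form in their windows, and Ssr2 has no entry. Of the other ERSE carriers shown, Hspa5 passed the adjusted p but was below the fold limit for a call, Hsp90b1, Calr, Canx and Creld2 passed neither, and the other copy of Hsp90b1 lies beyond the bases shown, 212 to 194 bases before the start. The coordinates are chr2:34771920-34772089 (+ strand) for Hspa5, chr12:17266419-17266588 (+) for Pdia6, chr6:47813513-47813682 (- strand) for Pdia4, chr16:17132384-17132553 (-) for Sdf2l1, chr10:86705445-86705614 (-) for Hsp90b1, chr8:84846932-84847101 (-) for Calr, chr11:50325674-50325843 (-) for Canx and chr15:88819476-88819645 (+) for Creld2.
Hspa5: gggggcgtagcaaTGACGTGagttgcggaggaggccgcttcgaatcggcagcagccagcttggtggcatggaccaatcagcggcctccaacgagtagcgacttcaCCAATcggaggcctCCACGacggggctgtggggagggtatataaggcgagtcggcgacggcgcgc
Pdia6: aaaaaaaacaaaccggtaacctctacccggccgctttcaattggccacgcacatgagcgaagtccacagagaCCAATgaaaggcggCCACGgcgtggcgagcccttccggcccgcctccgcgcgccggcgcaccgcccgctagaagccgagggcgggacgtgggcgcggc
Pdia4: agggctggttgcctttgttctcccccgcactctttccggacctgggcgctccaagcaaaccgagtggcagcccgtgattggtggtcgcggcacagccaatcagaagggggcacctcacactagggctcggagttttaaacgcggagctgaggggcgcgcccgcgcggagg
Sdf2l1: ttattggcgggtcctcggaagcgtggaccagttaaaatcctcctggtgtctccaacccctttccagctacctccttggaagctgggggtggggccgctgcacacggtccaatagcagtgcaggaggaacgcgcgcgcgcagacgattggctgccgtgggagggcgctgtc
Hsp90b1: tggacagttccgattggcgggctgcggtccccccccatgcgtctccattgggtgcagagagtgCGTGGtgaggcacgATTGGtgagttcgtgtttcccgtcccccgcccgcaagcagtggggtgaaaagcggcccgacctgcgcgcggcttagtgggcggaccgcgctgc
Calr: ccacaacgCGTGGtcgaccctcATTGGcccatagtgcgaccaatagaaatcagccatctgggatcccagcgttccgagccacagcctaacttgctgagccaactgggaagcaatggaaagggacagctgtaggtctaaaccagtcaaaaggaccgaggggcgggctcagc
Canx: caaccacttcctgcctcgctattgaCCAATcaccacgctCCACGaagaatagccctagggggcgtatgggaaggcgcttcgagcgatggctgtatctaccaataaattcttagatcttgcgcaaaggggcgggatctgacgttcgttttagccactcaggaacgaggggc
Creld2: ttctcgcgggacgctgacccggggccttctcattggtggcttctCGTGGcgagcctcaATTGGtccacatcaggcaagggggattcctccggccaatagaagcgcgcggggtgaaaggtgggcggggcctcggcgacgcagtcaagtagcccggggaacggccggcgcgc

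Calls were counted in the same way for members and for all genes. A gene was called when its adjusted p was below 0.05 and its fold exceeded 1.5. By this rule 4 of the 32 members (12.5%) were higher in Foxo1TKO: Pdia4, Pdia6, Sdf2l1 and Ssr2. Over all 13691 genes tested, 11.1% were called higher, so the members' share of higher calls was near the background. In either direction, 23.0% of all genes were called, against the same 12.5% of the members. Neither edgeR nor DESeq2 or limma-voom called a member lower (0 of 32), against 11.8% of all genes in edgeR, and 1 member (Pdia3) was lower at an unadjusted p under 0.05. With edgeR's adjusted p alone, Hspa5 joined the higher genes, which made 5 members, and 0 were lower (11.8% and 12.4% of all genes), while Pdia3 was lower by this rule in DESeq2 and limma-voom. The median log2 fold change was 0.10 over the members and 0.01 over all genes, and the median size of the change, whatever its direction, was 0.24 against 0.46. The members' median fell to -0.07 when Foxo1TKO 1 was left out.

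**Figure D1:**
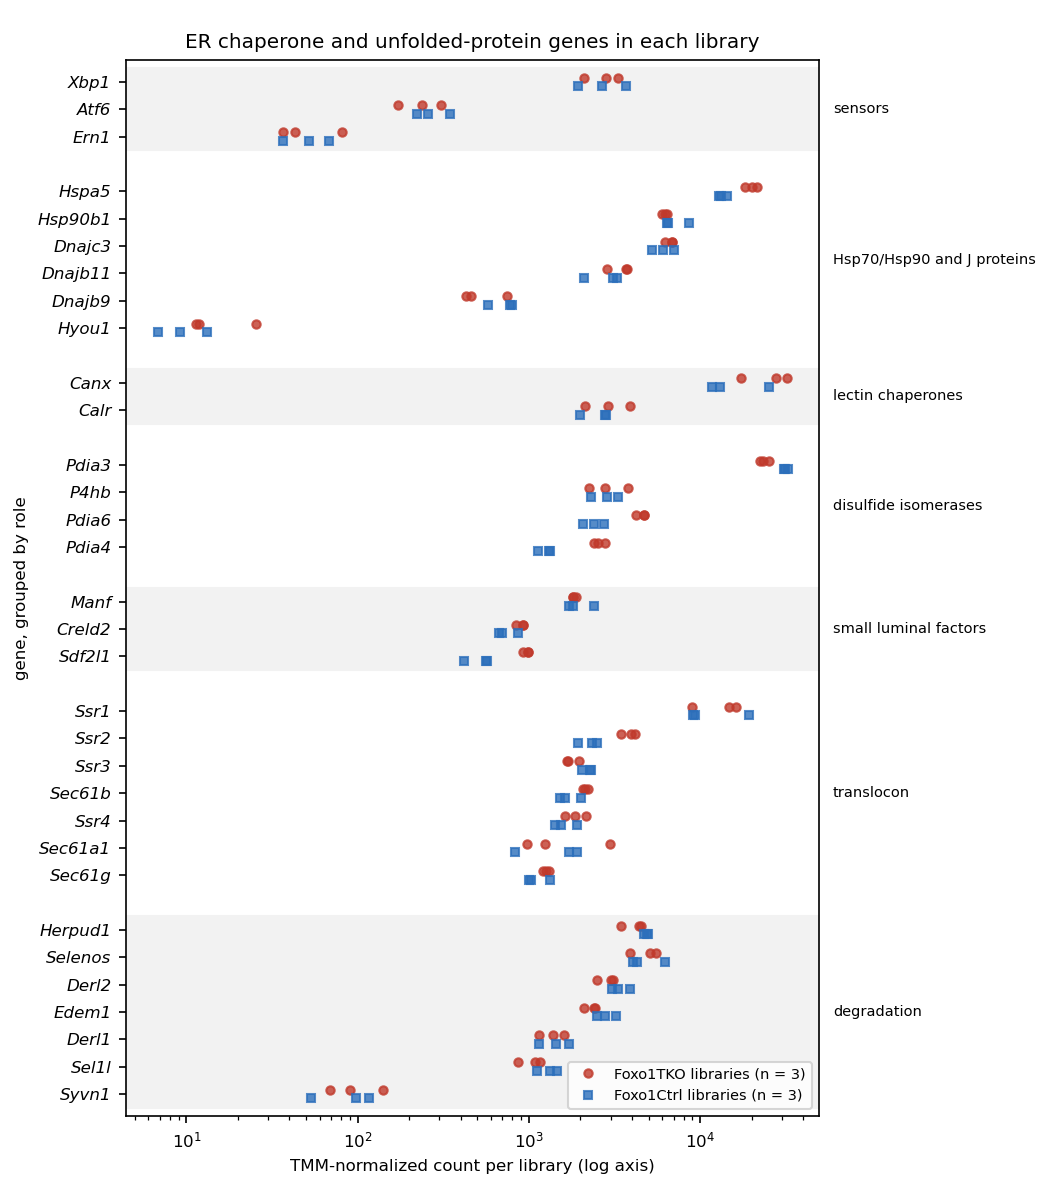
TMM-normalized count (log axis) of each of the 32 members in the 3 Foxo1TKO libraries (red circles) and the 3 Foxo1Ctrl libraries (blue squares), 1 point per library, with genes grouped by role. The genotypes stand apart for Pdia4, Pdia6, Sdf2l1, Ssr2, Hspa5 and Sec61b, with Foxo1TKO higher, and for Pdia3, Hsp90b1, Ssr3, Herpud1 and Edem1, with Foxo1TKO lower, while 21 genes overlap.

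The disulfide isomerases held the 2 largest differences. Pdia4 (ERp72, a multi-domain isomerase, chr6:47796141-47813430) had 2768, 2540 and 2395 normalized counts in Foxo1TKO libraries 1, 2 and 3, and 1328, 1126 and 1313 in Foxo1Ctrl. Every Foxo1TKO library was above every Foxo1Ctrl library, and the fitted difference was 2.04-fold (log2 fold change 1.03 ± 0.14 SE, adjusted p = 0.0021, edgeR's quasi-likelihood test, Benjamini-Hochberg adjusted). Pdia6 (ERp5, an isomerase that works with the chaperone BiP, chr12:17266545-17284770) had 4696, 4712 and 4238 normalized counts in Foxo1TKO and 2386, 2084 and 2730 in Foxo1Ctrl. The groups did not overlap here either, at 1.89-fold (log2 fold change 0.92 ± 0.15, adjusted p = 0.0043). Both calls held whichever library was left out. The exons of Pdia6 share bases with those of Atp6v1c2 on the opposite strand, and since the strand setting of the counting is not given in the sources used here, its reads could be mixed with that gene's. The same holds for Pdia3, Hsp90b1, Dnajb9, Manf, Sec61a1, Syvn1 and Derl2, and Mir704 lies in an exon of Pdia4 on the same strand.

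Pdia3 (ERp57, the isomerase that works on glycoproteins with calnexin and calreticulin and helps load MHC class I) lay the other way. It was the member with the highest mean TPM in both genotypes, and its normalized counts were 22458, 25307 and 23253 in Foxo1TKO and 30962, 32365 and 31239 in Foxo1Ctrl. All 3 Foxo1TKO libraries were below all 3 Foxo1Ctrl libraries, but the difference was under 1.5-fold and did not pass (log2 fold change -0.41 ± 0.14, adjusted p = 0.063). The adjusted p was 0.017 in DESeq2 and 0.04997 in limma-voom, and between 0.047 and 0.17 in edgeR with a library left out, always with a fold below 1.5. P4hb, the founding protein disulfide isomerase, overlapped between the genotypes, with 3811, 2801 and 2243 against 3316, 2316 and 2875 normalized counts (log2 fold change 0.06 ± 0.23).

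Among the Hsp70 and Hsp90 chaperones, Hspa5 stood apart. Hspa5 encodes BiP, the ER's main Hsp70, which also holds the sensors inactive until unfolded proteins draw it away. Its normalized counts were 19997, 21532 and 18182 in Foxo1TKO and 12916, 13289 and 14389 in Foxo1Ctrl. The genotypes did not overlap, and the difference passed the adjusted p (0.025) while its size, 1.47-fold, was below the limit for a call (log2 fold change 0.56 ± 0.14). Without Foxo1TKO 3 it was 1.53-fold with an adjusted p of 0.0499, and over all 6 fits with a library left out the adjusted p ran from 0.022 to 0.13. Hsp90b1 encodes GRP94, the ER's Hsp90, which folds integrins and Toll-like receptors. It had 5996, 6415 and 6234 normalized counts in Foxo1TKO and 6433, 8565 and 6485 in Foxo1Ctrl, with every Foxo1TKO library slightly below every Foxo1Ctrl library and no call (log2 fold change -0.20 ± 0.16, adjusted p = 0.40).

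The J-domain proteins bring clients to BiP and start its ATP cycle. Dnajb11 had a log2 fold change of 0.29, Dnajc3 of 0.12 and Dnajb9, which also keeps IRE1 switched off, of -0.39, all with overlapping libraries and adjusted p-values from 0.32 to 0.62. Hyou1 (GRP170, which exchanges the nucleotide on BiP) was hardly detected, with 25.4, 11.4 and 11.8 normalized counts against 13.1, 9.15 and 6.78, too few to place a change (log2 fold change 0.70 ± 0.52).

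The lectin chaperones retain proteins that carry a monoglucosylated glycan. Canx (calnexin, membrane bound) had 17252, 27668 and 32109 normalized counts in Foxo1TKO and 11650, 25178 and 13035 in Foxo1Ctrl. The spread inside each genotype was as wide as the gap between them, since Foxo1Ctrl 2 lay above Foxo1TKO 1, and the difference did not pass (log2 fold change 0.63 ± 0.34, adjusted p = 0.23). When Foxo1Ctrl 2 was left out, Canx was called at a log2 fold change of 1.07 with an adjusted p of 0.021. Calr (calreticulin, the soluble partner) had 3903, 2902 and 2128 against 2811, 2001 and 2776 normalized counts, which overlap (log2 fold change 0.24 ± 0.24).

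Of the small luminal factors induced by ER stress, Sdf2l1, which joins a complex of BiP and J proteins (chr16:17130138-17132383), had 991, 983 and 922 normalized counts in Foxo1TKO and 420, 563 and 572 in Foxo1Ctrl. It was higher in all 3 Foxo1TKO libraries, by 1.86-fold (log2 fold change 0.90 ± 0.18, adjusted p = 0.0088, edgeR's quasi-likelihood test, Benjamini-Hochberg adjusted). The call held in all 6 fits with a library left out, where the adjusted p reached 0.047. Creld2 had a log2 fold change of 0.26 and Manf, a secreted factor that protects stressed cells, of -0.11, both with overlapping libraries.

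**Figure D2:**
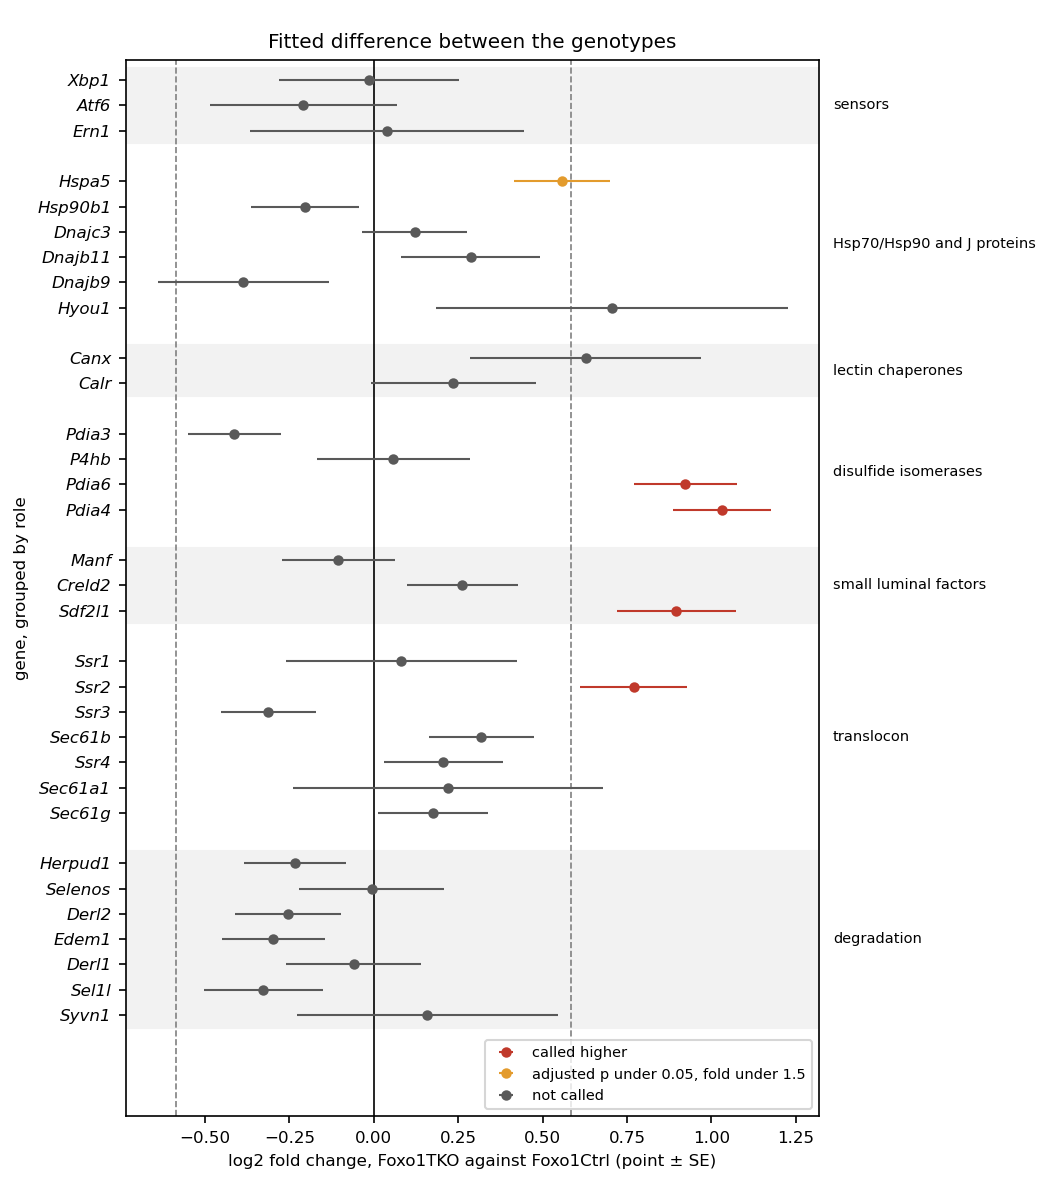
Fitted log2 fold change of each member, Foxo1TKO against Foxo1Ctrl, with its standard error (bar) from edgeR's quasi-likelihood fit to 3 libraries per genotype, and dashed lines at a fold of 1.5 in either direction. Pdia4 (1.03), Pdia6 (0.92), Sdf2l1 (0.90) and Ssr2 (0.77) are called, and Hspa5 (0.56) passes the adjusted p only.

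The translocon genes form the channel and its helpers. Ssr2 encodes the beta subunit of the translocon-associated protein complex, which sits beside the Sec61 channel and helps some signal sequences to enter it (chr3:88575876-88588419). Its normalized counts were 4164, 3961 and 3432 in Foxo1TKO and 2331, 1937 and 2510 in Foxo1Ctrl. The genotypes did not overlap, at 1.70-fold (log2 fold change 0.77 ± 0.16, adjusted p = 0.011). Without Foxo1TKO 2 the adjusted p was 0.054, which ended the call. Gm10704 overlaps its exons on the opposite strand, with the same uncertainty as for Pdia6.

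No other subunit of that complex was called, and the difference between subunits was not tested. Ssr3 had 1951, 1701 and 1677 normalized counts in Foxo1TKO and 2270, 2316 and 2037 in Foxo1Ctrl, lower in all 3 Foxo1TKO libraries but not called (log2 fold change -0.31 ± 0.14, adjusted p = 0.15). Ssr4 overlapped at 0.21 ± 0.18, and Ssr1 at 0.08 ± 0.34 (0.54 without Foxo1Ctrl 2). Of the 3 channel subunits, Sec61b, the small tail-anchored beta subunit, was higher without overlap, with 2071, 2134 and 2205 against 1617, 2016 and 1510 normalized counts, and did not pass (log2 fold change 0.32 ± 0.16, adjusted p = 0.18). Sec61g had a log2 fold change of 0.18 with overlapping libraries. Sec61a1, the pore itself, ranged over 3.06-fold among the Foxo1TKO libraries alone, with 2984, 1236 and 977 against 1920, 828 and 1719 normalized counts, and no difference could be placed on it (log2 fold change 0.22 ± 0.46).

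No gene of ER-associated degradation was called. Misfolded proteins are recognised by Edem1 and Sel1l, drawn through the Hrd1 complex (Syvn1, Derl1, Derl2, Herpud1, Selenos) and passed to the proteasome. Of these 7 genes, 6 had a negative log2 fold change, among them Derl1 (-0.06) and Selenos (-0.0066), which lay at about 0, and 6757 of the 13691 genes tested were negative. The median was -0.23 and the range -0.33 to 0.16, while 13 further degradation genes had 7 positive and 6 negative values and a median of 0.0059. Herpud1 had 3469, 4411 and 4536 normalized counts in Foxo1TKO and 4918, 4946 and 4723 in Foxo1Ctrl, and Edem1 had 2098, 2388 and 2431 against 2509, 2764 and 3228. Both were lower in every Foxo1TKO library, and neither passed (adjusted p = 0.31 and 0.20). Sel1l, the adaptor that holds the Hrd1 complex together, was lowest in fitted change among them (log2 fold change -0.33 ± 0.18, adjusted p = 0.22). Derl3, the derlin left out of the authors' table, was near the detection limit with 4.29 to 10.99 normalized counts in Foxo1TKO and 6.78 to 13.1 in Foxo1Ctrl (log2 fold change -0.51 ± 0.55).

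The sensors showed no difference beyond their spread. Xbp1 had 3324, 2822 and 2096 normalized counts in Foxo1TKO and 2686, 1927 and 3712 in Foxo1Ctrl (log2 fold change -0.015 ± 0.27). Gene counts do not separate the spliced from the unspliced Xbp1 mRNA, so the activity of IRE1 was not measured here. Atf6 (log2 fold change -0.21 ± 0.28) and Ern1 (0.04 ± 0.41, from 36.5 to 81.1 normalized counts) overlapped as well.

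Over the whole list, 6 members were higher without overlap between the genotypes and 5 were lower, against 21.5% and 21.2% of all genes tested. Over the 18 tested genes with an ERSE in the promoter window, 1 was called higher (Pdia6) and 0 lower, against 11.1% and 11.8% of all genes tested. Their median log2 fold change was 0.20, with 0.25 over the 8 members among them and -0.16 over the other 10. At an unadjusted p under 0.05 in edgeR, 6 of the 32 members passed (Pdia4, Pdia6, Sdf2l1, Ssr2, Hspa5 and Pdia3), against 5014 of the 13691 genes tested. The members' share was thus below that of all genes.

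Levels of different genes were compared per length, in the authors' TPM. In Foxo1Ctrl, Pdia3 was highest at 892 ± 75.1 TPM (SD, n = 3), then Hspa5 at 418 ± 53.1 TPM, and their libraries did not overlap. Selenos (314 ± 39.8 TPM), Canx (286 ± 92.5 TPM) and Sec61b (274 ± 12.1 TPM) followed, each overlapping its neighbour in this order. At the low end were Atf6 (2.96 ± 0.92 TPM), Syvn1 (2.75 ± 1.3 TPM), Ern1 (1.59 ± 0.80 TPM) and Hyou1 (0.19 ± 0.06 TPM). In Foxo1TKO, Pdia3 (690 ± 63.2 TPM) and Hspa5 (635 ± 93.8 TPM) overlapped. Ssr2 went from rank 11 to rank 6, Pdia6 from rank 17 to rank 11, Pdia4 from rank 24 to rank 19 and Sdf2l1 from rank 25 to rank 21.

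The members together took 4746 to 5259 TPM in the Foxo1TKO libraries and 4329 to 4578 TPM in the Foxo1Ctrl libraries, which is 0.433% to 0.526% of each library's transcripts per length. By role, the translocon summed to 1174 to 1340 TPM against 975 to 979 TPM, and the chaperones to 915 to 1096 TPM against 753 to 875 TPM. The isomerases overlapped, at 880 to 1114 TPM against 948 to 1151 TPM. Normalized counts give long transcripts more weight and are also scaled between libraries in another way than TPM. The sums differed in part. On that scale all members together overlapped (135652 to 156114 against 122976 to 153631), as did the translocon (22951 to 28018 against 19629 to 29624). The chaperones stayed higher in Foxo1TKO (35564 to 39027 against 27281 to 32792), and the isomerases were lower there without overlap (32129 to 35360 against 37891 to 38157). These sums lean on the most abundant gene of each role and do not describe the role as a whole. Hspa5 had a mean of 19904 against 13532, and of the 6 chaperones 4 had a positive and 2 a negative log2 fold change. Pdia3 had a mean of 23673 against 31522, and it was the only 1 of the 4 isomerases with a negative log2 fold change.

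**Figure D3:**
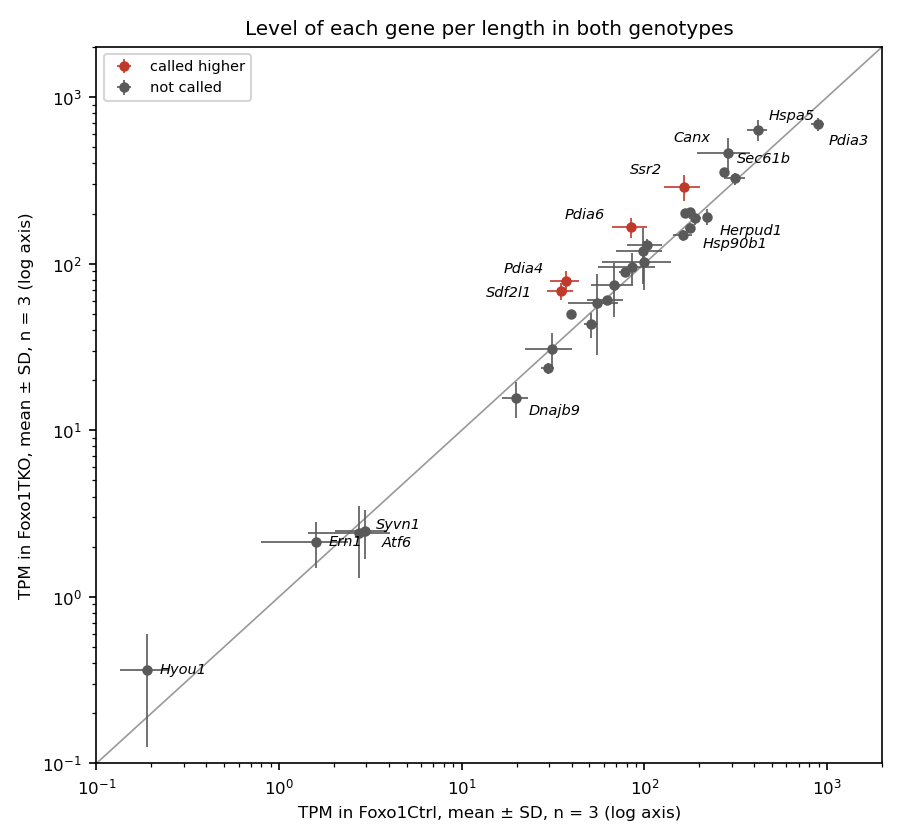
Level of each member in TPM, mean with SD bars over 3 libraries, in Foxo1Ctrl (x, log axis) and Foxo1TKO (y, log axis), with the line of equal level. Pdia4, Pdia6, Sdf2l1 and Ssr2 (red, called higher) stand above the line, while Pdia3, the highest gene in both genotypes, is below it at 690 against 892 TPM.

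The spread inside the genotypes had a pattern of its own. The log2 ratio of Foxo1TKO 1 to Foxo1TKO 3 ran from -0.90 (Canx) to 1.61 (Sec61a1), and that of Foxo1Ctrl 1 to Foxo1Ctrl 2 from -1.11 (Canx) to 1.21 (Sec61a1). The 2 ratios share no library, but each sets against each other the 2 libraries of a genotype farthest apart on the second component. Ratios picked in this way tend to go together. Across the 32 members the ratios did so (Pearson's r = 0.94, Spearman's rho = 0.91, given as a description, since genes are not independent replicates). Each also rose with the GC content of the gene's longest transcript (r = 0.46 and 0.44 over 32 members), and over all 10566 genes with a mean of at least 50 counts the same r was 0.35 and 0.43. Sec61a1, Syvn1, Ern1, Hyou1 and Atf6 were higher in replicate 1 of both pairs, and Canx and Ssr1 were lower there. Pdia4, Pdia6, Ssr2 and Hspa5 lay between -0.04 and 0.28 in both ratios, and Sdf2l1, also called, at 0.10 and -0.42. An offset for GC content, added after the data were seen, left the 4 calls in place, with Pdia4 at a log2 fold change of 1.03, Pdia6 at 0.90, Sdf2l1 at 0.81 and Ssr2 at 0.71. With it, Canx stood at 0.73 (adjusted p = 0.061) and Pdia3 at -0.40 (adjusted p = 0.043, below 1.5-fold).

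**Figure D4:**
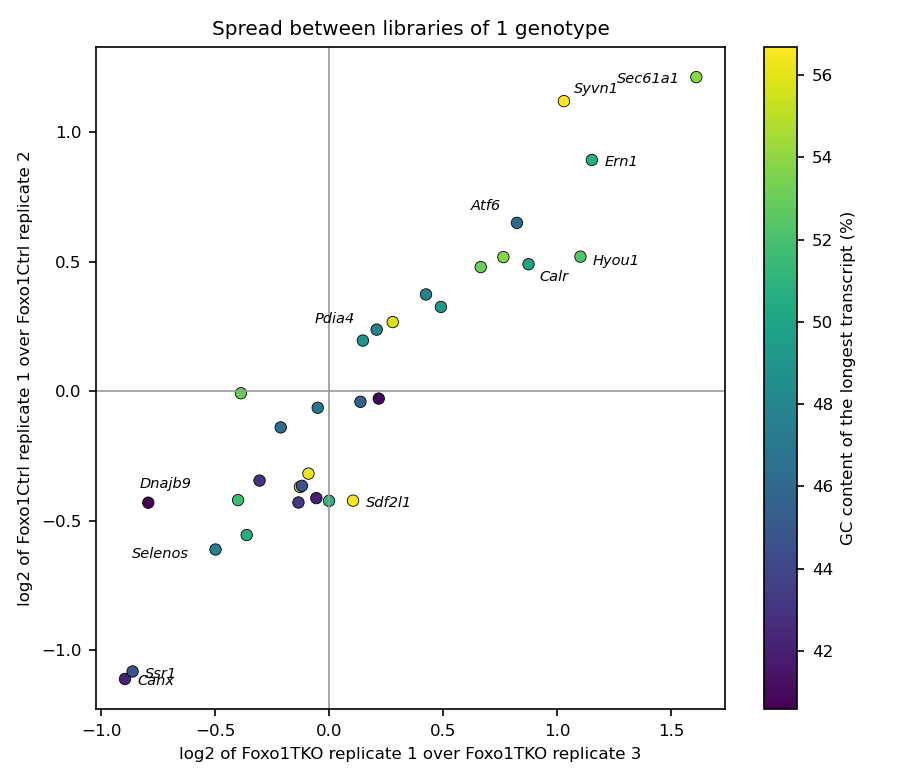
Log2 ratio of Foxo1TKO replicate 1 to replicate 3 (x) and of Foxo1Ctrl replicate 1 to replicate 2 (y) for each of the 32 members, coloured by the GC content of the longest transcript. The points follow a rising line from Canx and Ssr1 at lower left to Sec61a1 at upper right (r = 0.94). The axes share no library, but each sets the libraries farthest apart on the second principal component against each other.

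Other genes of the ER came from 7 further lists of 90 genes, of which 88 were tested. There 5 were called higher and 5 lower, which is 5.68% in each direction and below the shares over all genes (11.1% and 11.8%). The lower calls gathered in the PERK and ATF4 list, where 3 of 6 genes were lower and 0 higher. Eif2ak3, the sensor kinase PERK, had 216, 169 and 116 normalized counts in Foxo1TKO and 382, 369 and 376 in Foxo1Ctrl (log2 fold change -1.16 ± 0.25, adjusted p = 0.013, edgeR's quasi-likelihood test, Benjamini-Hochberg adjusted). Its groups did not overlap, and only without Foxo1TKO 2 was the call lost (adjusted p = 0.061).

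Ddit3 (CHOP), a transcription factor induced downstream of ATF4, had 473, 475 and 545 normalized counts against 891, 866 and 767, again without overlap (log2 fold change -0.76 ± 0.16, adjusted p = 0.012). It missed the threshold without Foxo1TKO 2 (adjusted p = 0.066) and without Foxo1Ctrl 1 (0.05). Trib3, a pseudokinase and ATF4 target, had 5.07, 5.26 and 0 against 193, 38.9 and 120 normalized counts (log2 fold change -4.69 ± 0.85, adjusted p = 0.0049), a call that held in all 6 fits with a library left out. Atf4 itself overlapped (log2 fold change 0.29 ± 0.20, adjusted p = 0.33), as did Ppp1r15a (GADD34), with 639, 374 and 282 against 1273, 287 and 936, which was called lower when Foxo1Ctrl 2 was left out (log2 fold change -1.33, adjusted p = 0.032). The remaining gene of the list, Eif2s1, had a positive value and overlapped as well (log2 fold change 0.35 ± 0.17, adjusted p = 0.19).

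Among other folding factors, 2 of 17 were higher and 2 lower. Pdia5, a further isomerase, was low in both genotypes but higher in Foxo1TKO, with 22.8, 50.9 and 39.7 against 3.58, 1.14 and 10.7 normalized counts (log2 fold change 2.62 ± 0.68, adjusted p = 0.020). Leaving out Foxo1TKO 2 or Foxo1Ctrl 1 moved its adjusted p to 0.074 in both cases. Sil1, a nucleotide exchange factor of BiP, was higher at a log2 fold change of 0.68 (adjusted p = 0.030), and the call was kept in 1 of 6 fits, that without Foxo1Ctrl 2. Without the other libraries its adjusted p lay between 0.066 and 0.095. Mzb1, a BiP cochaperone of B and plasma cells, was lower (log2 fold change -2.04 ± 0.35, adjusted p = 0.0046) in all 6 fits. Ero1a (Ero1l in the annotation), the oxidase that recharges the isomerases, had 1476, 1186 and 984 against 1816, 1959 and 2040 normalized counts (log2 fold change -0.67 ± 0.18, adjusted p = 0.029). Its call held only without Foxo1TKO 1, and the adjusted p was between 0.054 and 0.13 otherwise.

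Of the 13 genes of N-glycosylation, Dad1, a subunit of the oligosaccharyltransferase named for its defence against cell death, was higher with 7809, 9870 and 10572 against 3131, 4055 and 3489 normalized counts (log2 fold change 1.40 ± 0.18, adjusted p = 0.0013). This call held in all 6 fits. Of 17 translocation genes, Srprb, a subunit of the signal recognition particle receptor, was called higher (log2 fold change 0.79 ± 0.21, adjusted p = 0.028). It kept the call only without Foxo1Ctrl 2 or Foxo1Ctrl 3, with adjusted p-values of 0.053 to 0.096 otherwise. Of 15 transport genes, Sec13, part of the COPII coat, was higher with 2972, 3079 and 2990 against 1750, 2007 and 1978 normalized counts (log2 fold change 0.66 ± 0.13, adjusted p = 0.0099). Its adjusted p was 0.060 without Foxo1TKO 2 and 0.051 without Foxo1Ctrl 1. The 13 further degradation genes and 7 further sensors and regulators held no call. At an unadjusted p under 0.05 in edgeR they held 2 and 1 genes, against 5014 of the 13691 genes tested.

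**Figure D5:**
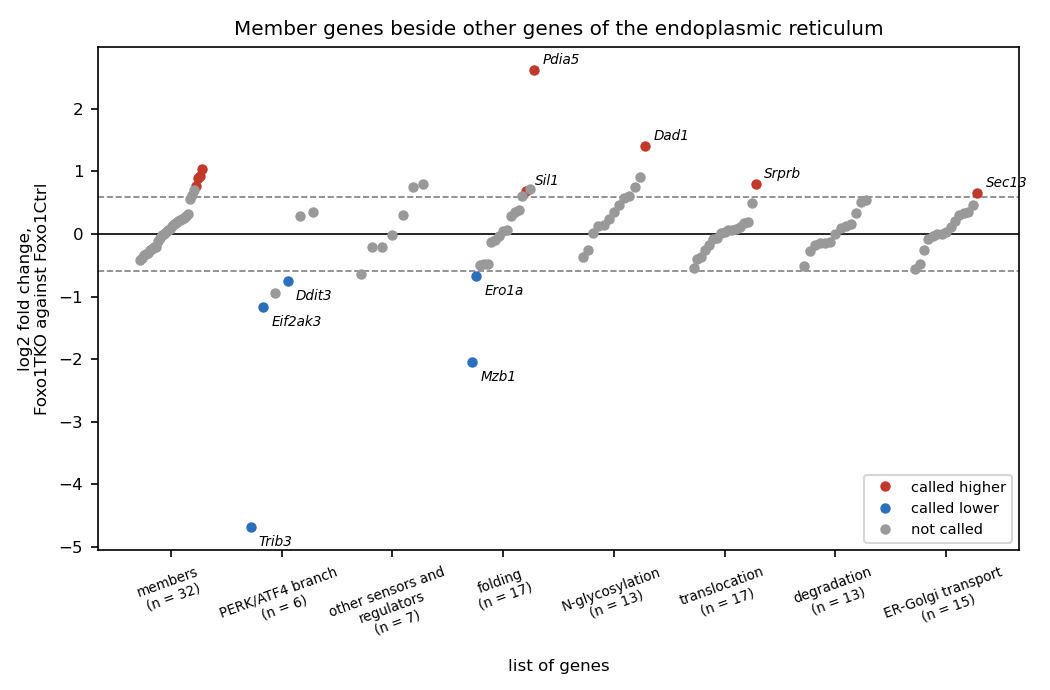
Log2 fold change, Foxo1TKO against Foxo1Ctrl, of the 32 members and of the 88 tested genes in 7 other ER lists, sorted within each list, with calls in colour and dashed lines at a fold of 1.5. Calls are 4 higher and 0 lower among the members, 0 higher and 3 lower in the PERK and ATF4 list, and 5 higher and 2 lower over the 6 other lists.

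Markers of other cells also differed between the genotypes. B cell markers were lower in Foxo1TKO for 4 of 5 genes tested, with a summed level of 6.83 to 9.42 TPM against 21.8 to 28.4 TPM over 6 genes. Plasma cell markers were lower for 6 of 8 tested, at 540 to 772 TPM against 1723 to 2176 TPM over 10 genes. Tnfrsf17, a defining plasma cell receptor, was at 0 in 5 of 6 libraries and Sdc1 at 7.15 normalized counts or fewer. That list also holds Mzb1 from the folding list, and Prdm1 and Irf4, which T cells express too.

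Proliferation markers were higher in Foxo1TKO for 4 of 7 genes (Top2a, Pcna, Mcm5 and Cdk1), with a sum of 378 to 507 TPM against 221 to 279 TPM. Mki67 (log2 fold change -0.12) and Ccnb1 (0.14) overlapped between the genotypes, and Mcm2 (1.47) was higher without overlap but not called. By dye dilution in such cultures, the paper reports that Foxo1-deficient T cells proliferated markedly less. Macrophage markers summed to 4.39 to 5.84 TPM in Foxo1TKO and 2.37 to 3.01 TPM in Foxo1Ctrl, with Adgre1 and Csf1r at 0 in 4 of 6 libraries, and neutrophil markers to at most 5.47 TPM. Of the NK cell markers, Nkg7, which activated T cells also express, was higher and Klrk1 lower, and no CD8 or erythroid marker was called. With each library left out in turn, Cd79b, Ms4a1, Mzb1, Igkc, Ighm, Prdm1 and Mcm5 kept their calls in all 6 fits, and the other called B cell, plasma cell and proliferation markers (Cd22, Cd79a, Jchain, Irf4, Cdk1, Pcna, Top2a) each lost theirs in at least 3. Dendritic cell markers overlapped at 2.42 to 3.74 TPM against 2.01 to 3.71 TPM. The part of these cells, and of the share of dividing cells, in the differences of the ER genes was not tested.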

How the data were processed

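RNA of 6 cultures was sequenced, 3 per genotype, and grouped by the genotype in the labels. The authors aligned reads with STAR 2.7.6a to Ensembl GRCm38 and counted them with RSEM 1.3.1, which shares a read that maps to several genes. They deposited expected counts, TPM and FPKM per gene and library, and a table of normalized signal for genes with enough reads (FPKM was not used here). The strand setting of the counting is not given in the sources used here.

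Expected counts were rounded. The 13691 genes that reached 10 counts in 3 or more libraries entered edgeR 4.0.16 in R 4.3.3 (TMM, quasi-likelihood F-test, prior count 1, genotype as the only term), with Benjamini-Hochberg adjustment over all of them and a call where the adjusted p was below 0.05 and the fold above 1.5. Normalized counts are counts divided by the effective library size and multiplied by its mean. The fit was tested on simulated counts. Positions and GC content came from GENCODE M21, and promoter windows from RefSeq, GRCm38.p6.

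The members and all gene lists were chosen with earlier results of these data known. Every member is named. From each other list, up to 3 called genes with the largest change are named, with genes of the marker lists. Ero1a, Atf4, Eif2s1 and Ppp1r15a were added after their values were seen. So were the ratios of TPM in the closing section and the uncalled oligosaccharyltransferase subunits named with them. Alternatives were DESeq2 1.42.0 (the authors' tool), limma-voom (limma 3.58.1), other scalings, filters and thresholds, the authors' normalized signal on the log2(value + 1) scale, an offset for effective length, a replicate block, each library left out in turn, and an offset for GC content, which was chosen after seeing the data. Plots were made in matplotlib 3.10.9.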

Additional observations from a re-analysis of the deposited data

How the results depend on the processing

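The 4 members called higher and 0 called lower were the same counts under DESeq2, limma-voom, the other scalings and filters, the authors' normalized signal, the offsets for effective length and GC content and the replicate block. At a fold over 2, 1 member was called higher, and 2 other ER genes higher and 3 lower. DESeq2 called 8 other ER genes higher. With a library left out, 3 to 5 members were called higher, 1 to 7 other ER genes higher and 2 to 5 lower, the lowest counts being without Foxo1TKO 2 and, for higher ER genes, also without Foxo1Ctrl 1. Foxo1 stayed between -4.75 and -4.16.

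No called member changed direction. The members that did had log2 fold changes between -0.11 and 0.24. With all libraries these were Xbp1 under limma-voom (log2 fold change 0.011), no filter on low counts (0.0035), the normalized signal (0.038), the effective length offset (0.0022) and the replicate block (0.016); Selenos under limma-voom (0.0044), the normalized signal (0.0087) and the block (0.0045); Ern1 under the block (-0.0035); P4hb under the GC offset (-0.028); Sec61a1 under the normalized signal (-0.036); and Syvn1 under the normalized signal (-0.21) and the effective length offset (-0.23). The cause was not tested. Between libraries, the RSEM effective lengths of Ern1, Sec61a1 and Syvn1 varied by 2.17-fold, 1.82-fold and 1.77-fold. Those of Xbp1, Selenos and P4hb varied by 1.06-fold, 1.03-fold and 1.01-fold. With a library left out, the range of log2 fold changes crossed 0 for Xbp1 (-0.20 to 0.25), Ern1 (-0.39 to 0.27), Calr (-0.019 to 0.43), P4hb (-0.18 to 0.22), Manf (-0.20 to 0.077), Sec61a1 (-0.44 to 0.50), Ssr1 (-0.12 to 0.54), Syvn1 (-0.17 to 0.39), Derl1 (-0.20 to 0.086) and Selenos (-0.13 to 0.22).

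Whether the replicate numbers pair the libraries was not settled. Same-numbered libraries deviated together with correlations of 0.62, 0.34 and -0.19 over 10575 genes, and Foxo1TKO 3 with Foxo1Ctrl 2 at 0.46. Such correlations cannot decide it, because deviations from the mean of a genotype depend on each other. For its flow cytometry of cultures of this kind, the paper used paired t tests. The replicate block left 4 members and 5 and 5 other ER genes called.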

Other observations

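Genes whose products work together were set side by side as ratios of TPM, chosen after their values were seen and given with no test. The ratio of Pdia4 to Pdia3 was 0.114 ± 0.011 in Foxo1TKO and 0.041 ± 0.0045 in Foxo1Ctrl (SD, n = 3 libraries each), and that of Pdia6 to Pdia3 was 0.239 ± 0.014 against 0.0946 ± 0.014. Within the translocon-associated protein complex, the ratio of Ssr2 to Ssr3 was 6.67 ± 0.36 against 3.21 ± 0.60. Between the main Hsp70 and Hsp90 of the ER, the ratio of Hspa5 to Hsp90b1 was 3.84 ± 0.35 against 2.36 ± 0.41. Within the oligosaccharyltransferase, the ratio of Dad1 to Ddost was 7.18 ± 2.62 against 2.86 ± 0.70. Other subunits, Rpn1 (log2 fold change 0.91), Rpn2 (0.58) and Stt3a (0.46), were also higher in Foxo1TKO without overlap, though not called. In edgeR's test, Stt3a passed the adjusted p (0.046) and was below the fold limit, while Rpn1 (0.12) and Rpn2 (0.11) did not pass. Ddost (0.13), Ostc (0.34) and Stt3b (-0.26) overlapped between the genotypes. In each of these 5 ratios, the lowest Foxo1TKO library was above the highest Foxo1Ctrl library. That is no further support, since the pairs were picked from these values. In normalized counts, Pdia4, Pdia6, Ssr2 and Hspa5 were already higher without overlap, and Pdia3, Ssr3 and Hsp90b1 already lower.

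The 10 tested genes that hold an ERSE and are not members had a median log2 fold change of -0.16 and a range of -0.73 to 1.21, and none was called by edgeR. They include Derl3 and the RNA-binding protein gene Hnrnpa3, which had 3433, 2979 and 3152 normalized counts in Foxo1TKO and 2207, 2543 and 2364 in Foxo1Ctrl (log2 fold change 0.43 ± 0.14, adjusted p = 0.058).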
